A study of Mus musculus with 8 samples.

Results

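Tmprss4, Bex4, Cd164l2, Selenbp1 and Ffar4 are 5 of the 22056 genes in the count tables of tumour cells that were grown from the same mouse line in brain, liver and subcutaneous tissue. They were chosen from a list by name because they had separated liver from subcutaneous tumours in these samples, so their difference between those sites is given as a description and carries no test. All 5 were among the 13931 genes that passed the filter on low counts. Tests were made on classes of cells within each tumour and on detection of 2 genes in the same cell, which that choice did not use directly. Some of the classes differ between liver and subcutaneous tumours, so the choice can bear on these tests too. Brain was tested against the mean of the other 2 sites, which the choice bears on in part.

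Expression was read from 8 single-cell libraries (10x, 3' end) of N2N1G, a mouse cell line from small cell lung cancer, which is a fast-growing cancer of neuroendocrine cells. Allografts of 1000000 cells were harvested after 3 weeks, and single cells were sorted as healthy cells before capture. Brain allografts (n = 2) and subcutaneous allografts of the flank (n = 3) were started by direct injection, and liver allografts (n = 3) by cells given through the tail vein, so that site and route cannot be told apart in comparisons with liver. All groups share the cell line, which is a single line, and no treatment or genotype differs between them. The series asks about growth of these cells in the brain, and the labels used here give no strain, sex or age of the hosts. The labels do not say whether each library came from a separate mouse, so p-values measure the spread between these samples.

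The 38460 deposited cells held 372293350 unique molecular identifiers (UMIs), and 34719 of the 36797 cells kept were taken as tumour cells because eGFP and Mycl made up at least 0.2% of their UMIs. The tumour cells numbered 2418 to 6276 per sample, with 21689091 to 62047017 UMIs in sum and medians of 7971.5 to 10542 UMIs per cell, and eGFP was detected in 99.4% to 99.8% of them. Pairs of libraries shared 20 to 56 cell barcodes. Subcutaneous replicate 1 stood apart: its mean Spearman correlation with the other samples of its site was 0.984, the lowest of the 8, and the tag genes made up a median of 0.603% of its UMIs, also the lowest. In sums of this kind, fewer cells with a transcript and less transcript per cell cannot be told apart, which is why shares of cells are given beside the levels.

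The 5 genes encode proteins of unrelated function. Tmprss4 is a serine protease anchored in the cell membrane, of a family that cuts other surface proteins and is held in check by Kunitz-type inhibitors. Cd164l2 is a membrane protein related to the sialomucin Cd164, and Bex4 belongs to a cluster of small proteins encoded on the X chromosome and best known from neurons. Selenbp1 binds selenium and oxidises methanethiol, a volatile sulfur compound. Ffar4, also called GPR120, is a G protein-coupled receptor for long-chain fatty acids and is known from adipocytes, gut endocrine cells and macrophages.

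On GRCm38 with GENCODE M21, Tmprss4 (ENSMUSG00000032091) lies on the minus strand at chr9:45172726-45204092. The other 4 lie on the plus strand: Bex4 (ENSMUSG00000047844) at chrX:136138996-136140443, Cd164l2 (ENSMUSG00000028865) at chr4:133212131-133224555, Selenbp1 (ENSMUSG00000068874) at chr3:94933056-94944758 and Ffar4 (ENSMUSG00000054200) at chr19:38097071-38114263. Tmprss4 overlaps BC049352 on the opposite strand and Cd164l2 overlaps Gpr3 on the opposite strand. Those partners had 14 and 274 UMIs in all tumour cells. Of the 31-base words in the last 500 bases of the Selenbp1 transcripts, where 3' libraries read, 60.6% also occur in Selenbp2, and 37.7% of those of Bex4 occur in other genes, so reads there may be lost or split between genes. Selenbp2 itself had 16 UMIs in all tumour cells. Tmprss4, Cd164l2 and Ffar4 shared none of these words.

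Selenbp1 and Ffar4 moved together in the cells described below, so the 250 bases before their RefSeq start sites are shown for comparison (RefSeq, GRCm38.p6, plus strand, 5′ to 3′). Capitals mark the letters ACGTG on either strand, the core of the sequence that hypoxia-inducible factors bind.
Selenbp1, chr3:94932833-94933082: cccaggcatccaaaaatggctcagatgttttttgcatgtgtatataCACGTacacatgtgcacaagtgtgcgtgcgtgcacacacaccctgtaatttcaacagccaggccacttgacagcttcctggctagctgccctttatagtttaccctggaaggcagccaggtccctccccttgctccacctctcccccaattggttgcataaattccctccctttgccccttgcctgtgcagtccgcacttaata
Ffar4, chr19:38096829-38097078: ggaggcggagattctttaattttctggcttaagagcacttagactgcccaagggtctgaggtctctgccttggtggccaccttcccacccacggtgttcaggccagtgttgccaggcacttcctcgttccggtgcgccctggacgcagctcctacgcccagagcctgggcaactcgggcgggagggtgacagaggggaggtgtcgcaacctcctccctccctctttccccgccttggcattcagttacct
The Selenbp1 window holds 1 match, on the minus strand, and the Ffar4 window holds 0. Of 32851 promoters of this length, 16.6% hold at least 1 match, so 1 match is a description of these letters only. The letters CAGCTG, an E box, occur in neither window and in 13.0% of all promoters. The windows of Bex4 and Cd164l2 held 2 and 0 matches of ACGTG, and the 2 of Bex4 are 1 palindrome, CACGTG, read on both strands.

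In liver tumours Tmprss4 and Cd164l2 were higher than at both other sites, Bex4 in brain lay within its liver range, and Selenbp1 and Ffar4 were lowest in liver and highest in subcutaneous tumours. Values per sample are UMIs of the gene per 1000000 UMIs (CPM), scaled by all UMIs of the sample's tumour cells.

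Tmprss4 was at 23.1, 31.3 and 21.3 CPM in liver replicates 1 to 3, at 4.58, 4.30 and 6.76 CPM in the subcutaneous replicates and at 4.10 and 5.53 CPM in brain. All liver samples lay above all others, while brain and subcutaneous samples overlapped. The means were 25.2 ± 5.31 CPM (SD, n = 3) in liver, 5.22 ± 1.35 CPM (SD, n = 3) in subcutaneous and 4.82 ± 1.01 CPM (SD, n = 2) in brain tumours. The fitted liver minus subcutaneous difference was 2.39 on the log2 scale (SE 0.224).

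Cd164l2 was at 30.7, 37.6 and 29.4 CPM in liver, at 8.42, 15.1 and 16.5 CPM in the subcutaneous tumours and at 4.33 and 5.06 CPM in brain. The 3 sites did not overlap and fell in the order liver, subcutaneous, brain, with means of 32.6 ± 4.41, 13.3 ± 4.32 and 4.70 ± 0.516 CPM (SD). The low subcutaneous value belonged to replicate 1, the library that stood apart. The fitted liver minus subcutaneous difference was 1.40 on the log2 scale (SE 0.229).

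Bex4 was at 29.0, 31.9 and 27.2 CPM in liver and at 30.71 and 30.69 CPM in brain, against 10.1, 9.32 and 9.40 CPM in the subcutaneous tumours. Both brain values lay inside the liver range, and the subcutaneous tumours stood alone on the low side. The site means were 29.4 ± 2.38 CPM in liver, 30.7 ± 0.0102 CPM in brain and 9.60 ± 0.427 CPM (SD) in subcutaneous tumours. The fitted liver minus subcutaneous difference was 1.73 on the log2 scale (SE 0.102).

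Selenbp1 was at 24.9, 27.0 and 19.8 CPM in the subcutaneous tumours, at 4.93 and 5.76 CPM in brain and at 3.26, 4.01 and 3.63 CPM in liver. The sites did not overlap, although brain and liver lay close together. The means were 23.9 ± 3.70, 5.35 ± 0.585 and 3.63 ± 0.377 CPM (SD), and liver minus subcutaneous was -2.60 on the log2 scale (SE 0.159).

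Ffar4 was at 49.1, 59.3 and 46.2 CPM in the subcutaneous tumours, at 39.97 and 36.8 CPM in brain and at 13.8, 12.5 and 15.1 CPM in liver. Brain lay just under the subcutaneous tumours, with no overlap, and far above liver. The means were 51.5 ± 6.89, 38.4 ± 2.22 and 13.8 ± 1.29 CPM (SD), and liver minus subcutaneous was -1.79 on the log2 scale (SE 0.122).

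**Figure D1:**
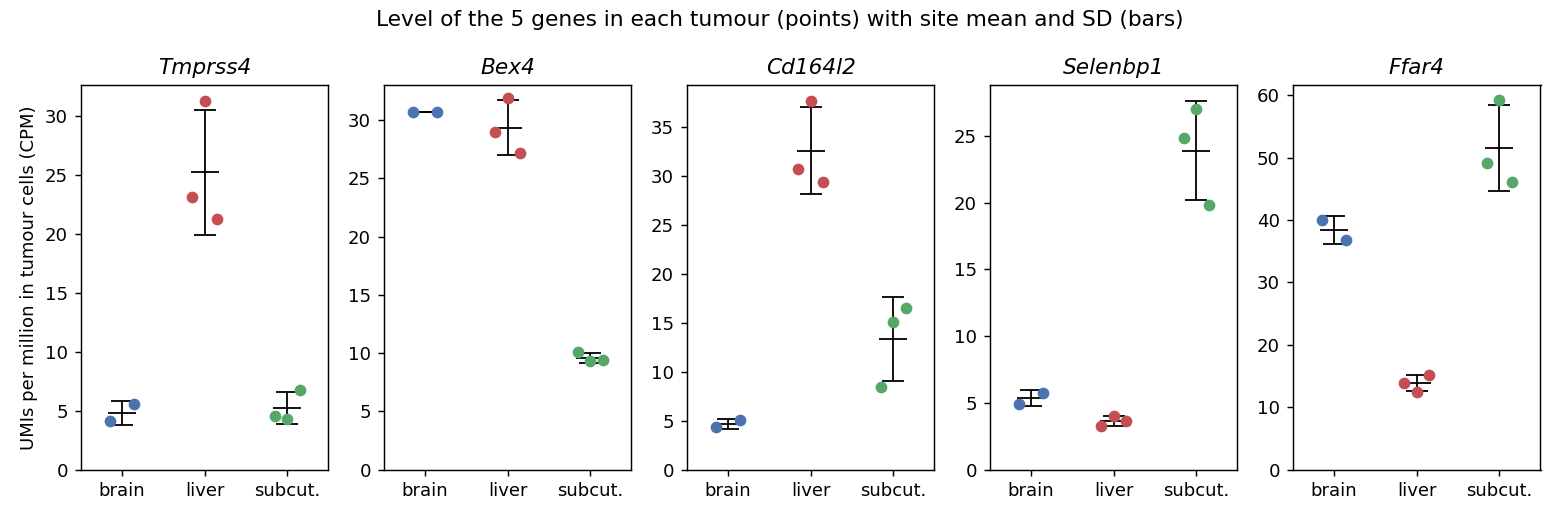
Level of each gene in tumour cells, in CPM (linear axes from 0), with 1 point per sample and bars for the site mean and SD (n = 2 brain, 3 liver, 3 subcutaneous). Liver points lie above all others for Tmprss4 and Cd164l2 and below all others for Selenbp1 and Ffar4, and the 2 brain points of Bex4 lie within the liver range.

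These differences between liver and subcutaneous tumours are the reason the 5 genes were listed. For orientation, 2.83% of the 13931 genes differed between those sites at an adjusted p under 0.05 (edgeR's quasi-likelihood test), and 27.7% had samples of the 2 sites that did not overlap. By size of the log2 difference Tmprss4, Bex4 and Cd164l2 ranked 53, 97 and 139 among genes higher in liver, and Selenbp1 and Ffar4 ranked 75 and 221 among genes higher in subcutaneous tumours. The number of genes past the threshold was 394 in all samples, 33 without liver replicate 2, 57 without liver replicate 1, 63, 122 and 1024 without subcutaneous replicates 2, 3 and 1, and 181 without either brain replicate.

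The genes were listed for separating liver from subcutaneous tumours, with earlier results of these data known. Whether brain samples played a part in the choice is not recorded. The contrast fitted for brain takes the mean of liver and subcutaneous tumours as its reference. For genes chosen to differ between those sites, a brain level equal to that of either site lies off this mean by 0.5 of the difference, so passing does not show that brain differs from both. All 5 genes passed, where 22.7% of all genes did, and because of that reference nothing is read from the count. Each gene is therefore given with its difference from either site, as log2 values without a test. Cd164l2 was at -2.20 in the contrast (SE 0.271, adjusted p = 0.00119) and was lower in both brain samples than in all 6 others, by -1.50 (SE 0.281) from subcutaneous tumours and -2.90 (SE 0.294) from liver. Tmprss4 was at -1.30 (SE 0.240, adjusted p = 0.00625), with brain at -2.49 (SE 0.268) from liver and -0.10 (SE 0.254) from subcutaneous tumours, whose values it overlapped. Bex4 was at 0.81 (SE 0.0958, adjusted p = 0.000991), with brain at 1.68 (SE 0.111) from subcutaneous tumours and -0.051 (SE 0.111) from liver. For Tmprss4 and Bex4 the call thus repeats the difference between liver and subcutaneous tumours. Selenbp1 was at -0.85 (SE 0.163, adjusted p = 0.00712), between the other sites, at -2.16 (SE 0.184) from subcutaneous tumours and 0.45 (SE 0.176) from liver. Ffar4 was at 0.47 (SE 0.116, adjusted p = 0.0209), also between them, at -0.43 (SE 0.134) from subcutaneous tumours and 1.36 (SE 0.132) from liver.

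The calls in brain rest on 2 samples. Of all genes, 3159 passed with all samples, 1081 without brain replicate 1, 1300 without brain replicate 2 and 5212 without subcutaneous replicate 1. Without brain replicate 1 the adjusted p was 0.0832 for Tmprss4, 0.0856 for Selenbp1 and 0.151 for Ffar4. The call for Ffar4 was also lost without brain replicate 2 (adjusted p = 0.0904) and without liver replicate 2 (adjusted p = 0.0570), while Bex4 and Cd164l2 passed in each fit that left out a sample. Macrophage or microglia markers summed to 530 and 80.3 CPM in the tumour cells of the brain samples, with 10 of 10 markers at 1 CPM or more in both, against 1 to 8 of 10 and a sum of 2.22 to 45.3 CPM elsewhere, and brain replicate 1 held 558 tumour cells with at least 3 of these markers. The 6 oligodendrocyte markers summed to 258.0 and 193 CPM in brain (6 and 5 of 6 at 1 CPM or more) and to 60.4 to 74.0 CPM elsewhere (4 of 6). The 6 astrocyte markers summed to 42.2 and 26.9 CPM in brain (3 and 4 of 6 at 1 CPM or more) and to 1.04 to 3.29 CPM elsewhere (0 to 2 of 6). With cells of at least 3 macrophage markers left out of all samples, all 5 genes passed the same test, with adjusted p of 0.000625 to 0.0131. This alternative was added after the data were seen, and 3091 of 13752 genes passed in it. The 5 genes also passed with cells of at least 3 oligodendrocyte or 3 astrocyte markers left out as well, with adjusted p of 0.000501 to 0.0123. In all, 650 and 265 cells in brain and 31 to 76 in each other sample were left out, and 3190 of 13780 genes passed. The reference is still the mean of liver and subcutaneous tumours, so nothing is read from 5 genes passing here either. Free RNA of host cells is not removed by leaving cells out.

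Tumour cells of a sample are not alike, and the choice of the genes did not directly use differences between cells of the same sample. Cells were therefore split within each sample into classes, and the sums of the classes were compared with the sample as a block. Some classes differ between liver and subcutaneous tumours in their share of cells or in the level of the genes that define them. Genes chosen to separate those sites may follow such classes more often than other genes. The share of all genes that passed does not take this into account.

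The first split used 19 genes of the response to low oxygen, such as Car9, Vegfa and Slc2a1, which hypoxia-inducible factors are known to raise. The 25% of each sample's cells with the highest share of UMIs in this list were called hypoxia-high, which is a range of a score and not a cell type. Median depth was 9022 UMIs in these cells and 9966 in the others. In this contrast 28.2% of all genes passed. Their number fell from 3703 to 2456, 2175 and 2094 without subcutaneous replicates 1, 2 and 3.

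Selenbp1 was 8.10-fold higher in hypoxia-high cells than in the other cells of the same samples (log2 difference 3.02, SE 0.464, adjusted p = 0.00455, higher in 8 of 8 samples). In the subcutaneous tumours it was at 91.7, 99.9 and 72.1 CPM in hypoxia-high cells and at 4.73, 5.76 and 4.30 CPM in the others. In liver it was at 6.78, 9.23 and 7.79 CPM against 2.35, 2.55 and 2.22 CPM, and in brain at 8.08 and 13.1 CPM against 3.66 and 3.30 CPM. The log2 ratio of the classes was 4.15 ± 0.110 (SD) in subcutaneous, 1.73 ± 0.175 in liver and 1.57 ± 0.595 in brain tumours, with no overlap between the subcutaneous samples and the rest. Whether the ratio differs between liver and subcutaneous tumours was not tested, because the choice of the gene bears on it.

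Ffar4 was 1.98-fold higher in hypoxia-high cells (log2 difference 0.98, SE 0.193, adjusted p = 0.00922, higher in 8 of 8 samples). In the subcutaneous tumours it was at 102.2, 122.8 and 92.1 CPM in these cells and at 33.0, 40.7 and 32.6 CPM in the others. Those last values overlap the 37.4 and 34.6 CPM of the other cells in brain. In liver Ffar4 was at 17.6 to 19.4 CPM in hypoxia-high and at 11.1 to 14.0 CPM in other cells, below every subcutaneous value of either class. Cd164l2 was higher in hypoxia-high cells by a small amount, 0.25 on the log2 scale (SE 0.0597, adjusted p = 0.00991, 7 of 8 samples), and did not pass when the class was the top 10% of cells (0.083, adjusted p = 0.508). Bex4 did not pass (0.18, SE 0.0799, adjusted p = 0.111), except without subcutaneous replicate 2 (0.25, adjusted p = 0.0164). Tmprss4 did not pass (-0.0017, SE 0.0934, adjusted p = 0.994), but was lower in the top 10% (-0.40, adjusted p = 0.0242).

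**Figure D2:**
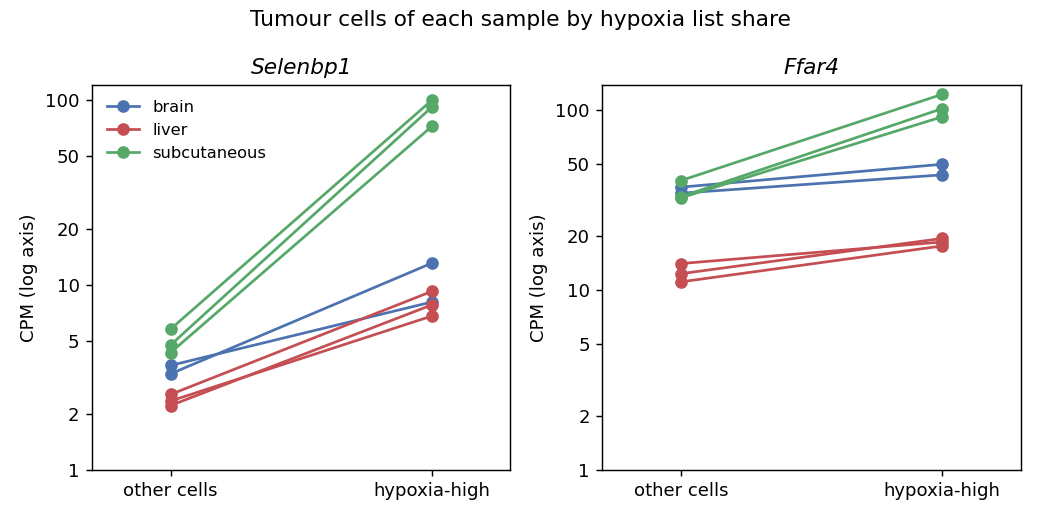
Level of Selenbp1 and Ffar4 (CPM, log axes) in the hypoxia-high 25% of tumour cells and in the other tumour cells, with 1 line per sample, coloured by site. Each of the 8 lines rises for both genes, and for Selenbp1 the 3 subcutaneous lines rise from 4.30 to 5.76 CPM up to 72.1 to 99.9 CPM.

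The hypoxia list itself differed between the sites. Its 19 genes summed to 3885 ± 595 CPM (SD, n = 3) in subcutaneous, 2291 ± 84.4 CPM (n = 3) in liver and 1592 ± 159 CPM (n = 2) in brain tumours, and 12 of the 19 were lower in liver than in subcutaneous tumours (adjusted p under 0.05). The class takes the same share of cells from each sample, so its cutoff in the list's share is set within each sample. The part of the list's level in the site differences of Selenbp1 and Ffar4 was not tested. Among cells outside the class the liver minus subcutaneous difference was -1.05 for Selenbp1 and -1.50 for Ffar4 on the log2 scale of mean CPM, against -3.47 and -2.52 inside it. The liver and subcutaneous samples did not overlap in either class for any of the 5 genes, which were chosen to separate these sites. The share of all genes without overlap in these classes was not counted. For Tmprss4 the differences were 2.25 outside and 2.33 inside, and for Bex4 1.56 and 1.78.

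Bex4, Cd164l2 and Tmprss4 had similar levels in liver tumours but were spread differently over the cells. With each cell thinned to 3000 UMIs, the variance of the counts over their mean in liver was 1.46 ± 0.0742 (SD, n = 3) for Bex4, 1.08 ± 0.0292 for Cd164l2 and 1.12 ± 0.0389 for Tmprss4, where a value of 1 is that of counting noise alone. The Bex4 samples, at 1.38 to 1.53, lay above all samples of the other 2 genes. This ratio rises with the mean at equal spread, so it is not compared between sites where the level differs.

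At least 1 UMI of Selenbp1 was found in 12.8% ± 1.12 (SD) of subcutaneous, 4.31% ± 0.420 of brain and 3.60% ± 0.351 of liver tumour cells, which became 6.20%, 1.50% and 1.14% after thinning. Ffar4 was detected in 34.1% ± 2.14, 26.9% ± 0.960 and 13.3% ± 1.27 of the cells of these sites, or 13.8%, 11.3% and 4.09% after thinning. Tmprss4 was detected in 20.1% ± 4.72 of liver cells against 4.47% ± 1.54 of subcutaneous and 3.46% ± 0.681 of brain cells. For Cd164l2 these shares were 26.6% ± 3.84, 11.4% ± 3.80 and 3.86% ± 0.428, and for Bex4 15.3% ± 1.95, 4.86% ± 0.176 and 14.6% ± 0.589. The order of the sites was the same in these shares before thinning as in the levels except for Bex4, whose liver and brain values overlapped in both. After thinning, Bex4 was detected in 7.74% of brain, 6.90% of liver and 2.13% of subcutaneous cells, the order of its levels.

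Free RNA can give a UMI in any cell, so the same genes were counted in kept cells that did not pass the tumour rule. In the 840 such cells of brain replicate 1 with at least 3 macrophage or microglia markers (median 4287 UMIs), Tmprss4 and Cd164l2 were each detected in 3 cells (0.357%, exact 95% interval 0.0737 to 1.04), Bex4 in 6 (0.714%, 0.263 to 1.55) and Ffar4 in 23 (2.74%, 1.74 to 4.08). These shares lie below those of the tumour cells of the same sample, which are deeper (median 7971.5 UMIs). Selenbp1 was detected in 79 of them (9.40%, 7.52 to 11.6), more than in tumour cells, with 111 UMIs in the same cells, or 25.9 CPM (exact Poisson interval 21.3 to 31.2), above the 4.93 CPM of the tumour cells of that sample. In cells of subcutaneous replicate 1 with at least 3 fibroblast markers it was at 56.9 CPM (33.1 to 91.1), from 17 UMIs. Adipocytes are known for Ffar4, and the 6 adipocyte markers summed to 0.0771 to 0.983 CPM in the tumour cells of every sample, with 0 to 4 of the 6 at 0 and none at 1 CPM or more. Intervals of this kind cover counting error only.

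The second split followed the cell cycle. Cells with at least 4 UMIs of a list of 20 G2/M genes after thinning were called cycling and made up 33.7% to 38.1% of the cells of a site on average, with median depths of 11092.5 UMIs against 9169 in the others. In this contrast 58% of all genes passed, so that a call alone says little here. Cd164l2 was lower in cycling cells in 8 of 8 samples (log2 difference -0.91, SE 0.0525, adjusted p = 5.98e-13). In liver it was at 20.3, 27.8 and 19.8 CPM in cycling and 37.9, 44.8 and 36.4 CPM in other cells. Selenbp1 (-0.41), Ffar4 (-0.40) and Tmprss4 (-0.33) were lower to a smaller extent, with adjusted p of 1.01e-06, 2.40e-05 and 2.50e-05. They were lower in 7, 8 and 6 of 8 samples, and Tmprss4 was higher in both brain samples (log2 ratios 0.21 and 0.13). Bex4 did not pass (-0.089, adjusted p = 0.370).

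Further splits used pairs of genes that mark varied cells within these tumours and were chosen with earlier results of these data known. Cells with a UMI of both genes of a pair were compared with cells that had a UMI of neither, and the pair genes themselves are no result. Cells with both had the higher median depth for 4 of the 5 pairs, for example 11420 UMIs against 7601 for Sfrp5 and Sftpc.

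Sfrp5, a secreted Wnt inhibitor, and Sftpc, a surfactant protein of alveolar type II cells, were both detected in 52.5% ± 6.59 (SD) of liver, 29.2% ± 11.2 of subcutaneous and 17.2% ± 1.48 of brain tumour cells. In this contrast 48.3% of all genes passed. Cd164l2 was 2.45-fold higher in cells with both (log2 difference 1.29, SE 0.186, adjusted p = 0.000417) and Tmprss4 1.99-fold higher (0.99, SE 0.167, adjusted p = 0.000613), each in 8 of 8 samples. Selenbp1 was lower by 1.79 on the log2 scale in these cells (log2 difference -1.79, SE 0.293, adjusted p = 0.0013) and Ffar4 was lower (-0.54, SE 0.0734, adjusted p = 4.03e-05), also in 8 of 8 samples. Bex4 did not pass with all samples (0.49, SE 0.219, adjusted p = 0.0974), but did without brain replicate 1 (0.63, adjusted p = 0.0333) or 2 (0.66, adjusted p = 0.0195).

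Cd164l2 was at 7.23 and 11.6 CPM in the brain cells with both markers and at 1.46 and 1.77 CPM in those with neither. In liver the values were 34.0, 42.5 and 33.2 CPM against 18.5, 21.7 and 15.1 CPM, so that liver cells with neither marker lay above brain cells with both. Tmprss4 was at 24.8, 33.8 and 23.2 CPM against 14.97, 23.4 and 17.8 CPM in liver, and at 8.26, 5.19 and 8.67 CPM against 2.96, 2.97 and 4.57 CPM in the subcutaneous tumours. Selenbp1 was at 9.37, 10.3 and 6.60 CPM in subcutaneous cells with both and at 34.7, 62.4 and 49.4 CPM in those with neither. The liver and subcutaneous samples did not overlap within either class for any of the 5 genes, which were chosen to separate these sites. In whole samples 27.7% of all genes had no overlap, and the share within these classes was not counted.

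**Figure D3:**
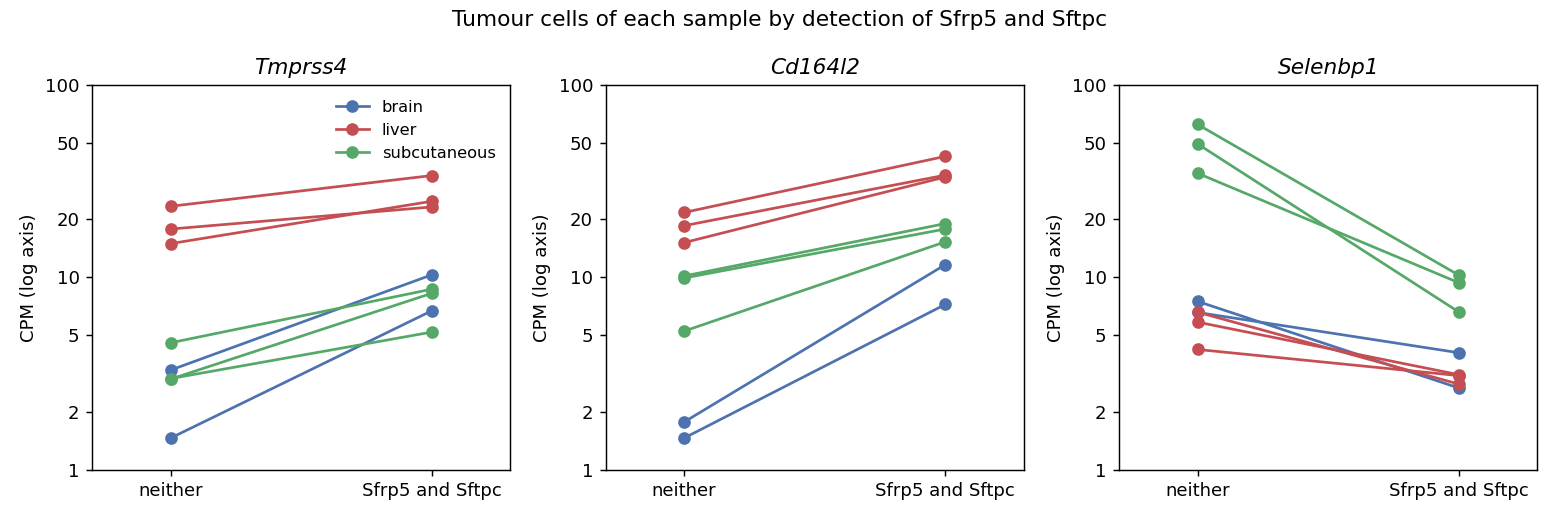
Level of Tmprss4, Cd164l2 and Selenbp1 (CPM, log axes) in tumour cells with a UMI of neither Sfrp5 nor Sftpc and in cells with both, with 1 line per sample, coloured by site. The 8 lines rise for Tmprss4 and Cd164l2 and fall for Selenbp1, and the 3 liver lines stay above the others for Tmprss4 and Cd164l2 on both sides.

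Hypoxia-high cells were unevenly spread over this split, so both splits were crossed. In subcutaneous tumours they were 11.4% ± 0.670 (SD, n = 3) of the cells with Sfrp5 and Sftpc and 38.6% ± 5.81 of the cells with neither, and in liver 21.9% ± 1.80 and 31.2% ± 4.24. Among subcutaneous cells outside the hypoxia-high class, Selenbp1 was at 4.40 ± 0.635 CPM with both markers and at 6.23 ± 0.950 CPM with neither. Inside the class it was at 46.1 ± 18.5 CPM with both and at 115.8 ± 20.1 CPM with neither. Tmprss4, among subcutaneous cells outside the hypoxia-high class, was at 7.11 ± 1.54 CPM with both markers and at 3.69 ± 2.02 CPM with neither, and Cd164l2 was at 17.0 ± 1.68 and 7.08 ± 1.86 CPM. Ffar4 differed little in these subcutaneous cells, at 34.6 ± 3.26 CPM with both markers and 35.5 ± 6.44 CPM with neither. In subcutaneous replicate 1 Ffar4 was higher with both (33.2 against 30.8 CPM). Outside the hypoxia-high class its means with both and with neither were 11.2 and 19.0 CPM in liver and 31.9 and 39.6 CPM in brain. The 15 of 19 hypoxia genes that passed in the contrast of the marker classes were all lower in cells with Sfrp5 and Sftpc.

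Cells with En1, a homeobox factor, and Des, the muscle intermediate filament desmin, were most common in brain, at 12.1% ± 1.67 (SD) of tumour cells against 0.921% ± 0.286 in liver and 1.92% ± 1.89 in subcutaneous tumours. In this contrast 39.3% of all genes passed. Tmprss4 (-2.01, SE 0.323, adjusted p = 4.05e-05) and Cd164l2 (-1.86, SE 0.221, adjusted p = 2.28e-07) were lower in these cells in 8 of 8 samples, and Ffar4 was higher in 8 of 8 (0.62, SE 0.151, adjusted p = 0.00344). The counts behind this are small for Tmprss4, with 1 and 16 UMIs in these cells in brain (0.386 and 2.87 CPM against 5.11 and 7.03 CPM outside) and 0 to 7 in each other sample. Median depth was 8246 UMIs in the class and 9673 outside. In brain, where most of these cells are, Ffar4 was at 48.3 to 52.5 CPM in them and at 32.2 to 34.5 CPM outside. Bex4 was at 66.0 and 51.3 CPM in them against 20.6 and 19.2 CPM outside in brain, but at 7.63 to 15.4 CPM against 27.2 to 32.4 CPM in liver. In the subcutaneous tumours it was at 33.2, 16.1 and 11.2 CPM against 7.36, 9.24 and 9.23 CPM, and its fitted difference did not pass (0.90, SE 0.454, adjusted p = 0.166). Selenbp1 did not pass (0.51, SE 0.227, adjusted p = 0.0784), except without subcutaneous replicate 1 (0.75, adjusted p = 0.0163). Inside this class, with 28 to 170 cells per liver or subcutaneous sample, the 2 sites overlapped for all 5 genes, and Bex4 had the opposite sign, at -0.66 on the log2 scale.

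Cells with Tfap2a, a transcription factor of epithelial and neural crest development, and Cldn7, a tight junction protein, stood out for Bex4. In this contrast 38% of all genes passed. Bex4 was lower by 1.81 on the log2 scale (log2 difference -1.81, SE 0.164, adjusted p = 2.03e-06) in 8 of 8 samples. It was at 9.08, 10.8 and 9.66 CPM in these cells and at 34.0, 35.5 and 30.6 CPM outside them in liver, and at 15.3 and 12.3 CPM against 35.5 and 38.6 CPM in brain. In subcutaneous replicate 2 the values were close, at 8.88 against 9.50 CPM, while replicates 1 and 3 were at 2.90 and 1.04 CPM against 17.6 and 10.4 CPM. Cd164l2 was also lower (-0.55, SE 0.0990, adjusted p = 9.93e-05, 7 of 8 samples), and the other 3 genes did not pass. Without brain replicate 2, Tmprss4 (0.33, adjusted p = 0.0422) and Selenbp1 (0.36, adjusted p = 0.0386) passed. The class is deeper, with a median of 12113 UMIs against 9448.

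In cells with Isl1 and Htr3a, a LIM homeobox factor and a serotonin receptor channel, Selenbp1 (-0.90, SE 0.114, adjusted p = 3.86e-05) and Ffar4 (-0.39, SE 0.0608, adjusted p = 0.000258) were lower, where 26.9% of all genes passed. In cells with Rem2 and Galnt14, a small GTPase and an enzyme that starts O-linked glycans, Selenbp1 (-1.27, SE 0.230, adjusted p = 0.00437) and Ffar4 (-0.28, SE 0.0519, adjusted p = 0.0013) were again lower, where 26.4% of all genes passed. Both classes were deeper than the cells with neither marker, with medians of 11784 against 8410 and of 11909 against 7848 UMIs. Tmprss4, Bex4 and Cd164l2 passed in neither of these 2 contrasts, except Cd164l2 for Rem2 and Galnt14 without brain replicate 2 (0.26, adjusted p = 0.0412). Selenbp1 and Ffar4 differed in the same direction in each of the 7 splits, though not past the threshold in each.

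**Figure D4:**
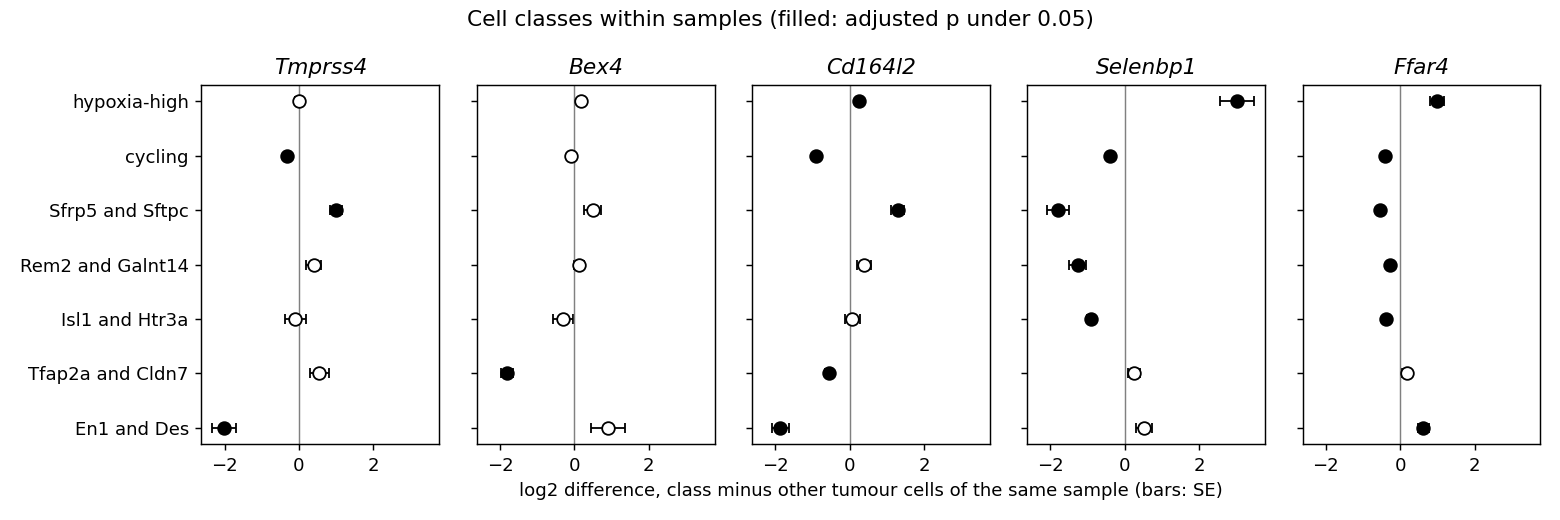
Fitted log2 difference (bars: SE) of each gene between a class of tumour cells and the other cells of the same samples, for 7 classes, with filled points where the adjusted p is under 0.05. Selenbp1 has its largest value, 3.02, in hypoxia-high cells, Bex4 has a filled point only at Tfap2a and Cldn7, and Tmprss4 and Cd164l2 lie to the right for Sfrp5 and Sftpc and to the left for En1 and Des.

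Detection in the same cell was counted for the 10 pairs of the 5 genes, with the number expected if 2 genes fell independently on the cells of each of 10 depth bins of a sample. Selenbp1 and Ffar4 were found together in 1317 cells against 858 expected, 1.53 times, and Tmprss4 and Cd164l2 in 1229 cells against 952 expected, 1.29 times. Both pairs were above the expected number in 8 of 8 samples (exact two-sided sign-flip test over samples, p = 0.00781, the smallest it can give, adjusted over 10 pairs 0.0391). For Selenbp1 with Ffar4 this held in liver as well, with 32, 40 and 30 cells against 23.9, 24.8 and 21.7 expected. The other 8 pairs had adjusted p of 0.495 or more by the exact test, and their observed numbers were 0.939 to 1.05 times the expected ones. Each pair that passed joins genes chosen for the same direction between liver and subcutaneous tumours, so the choice can bear on this test.

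Of the close relatives of the 5 genes, only Bex1 passed between liver and subcutaneous tumours among those tested. Of the Bex genes, Bex1, Bex2 and Bex3 were abundant, with 96360, 123489 and 135548 UMIs in all tumour cells, and Bex6 had 6 UMIs. Bex1 was higher in liver than in subcutaneous tumours (0.65, SE 0.0837, adjusted p = 0.00895), at 321.7, 325.3 and 313.6 against 201.2, 228.5 and 233.6 CPM, a call that was lost without liver replicate 2 (adjusted p = 0.0754). It did not pass for brain (-0.093, SE 0.0840, adjusted p = 0.458), and Bex2 (0.15, adjusted p = 0.302) and Bex3 (0.15, adjusted p = 0.329) did not pass for liver against subcutaneous tumours. Cd164, with 29463 UMIs, was lower in brain by 0.39 on the log2 scale (log2 difference -0.39, SE 0.0960, adjusted p = 0.0191) and did not pass between liver and subcutaneous tumours (0.12, SE 0.0932, adjusted p = 0.574). Of the fatty acid receptors, Ffar1 had 5 UMIs, Ffar3 had 0 and Ffar2, a receptor for short-chain fatty acids, had 328, and Tmprss2 had 2. The brain call for Cd164 was lost without brain replicate 1 (adjusted p = 0.111) or 2 (0.120) and without subcutaneous replicate 3 (0.0505).

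Wider lists around each gene were counted between liver and subcutaneous tumours, where 2.83% of all genes passed. With lists this short, 0 to 2 calls a list do not set the lists apart from that share. Of 9 tested genes other than Tmprss4 on a list of membrane serine proteases, their inhibitors and partners, 0 passed (edgeR). Among the 9, 4 were at an unadjusted p under 0.05 (edgeR), as were 2504 of all 13931 genes. DESeq2 called 1 of the 9, and 1059 of all genes. The median difference of the 9 was 0.40 against -0.0061 over all genes. Of 10 tested Bex and Tceal genes and their partners, Bex1 and Tceal3 (1.67, SE 0.300, adjusted p = 0.0271) were higher in liver. Of 9 genes on a list of sialomucins and partners 0 passed (edgeR), with 2 at an unadjusted p under 0.05 and 1 called by DESeq2. Of 27 genes of sulfur and selenium handling only Selenos, a selenoprotein of the endoplasmic reticulum, passed (-0.62, SE 0.0909, adjusted p = 0.0148), and of 20 genes of fatty acid reception and activation only Acsl1, an acyl-CoA synthetase, passed (0.63, SE 0.103, adjusted p = 0.0212). These 3 calls were lost when certain single samples were left out: Tceal3 without liver replicate 1, 2 or 3 or subcutaneous replicate 2 or 3 (adjusted p 0.0585 to 0.144), Selenos without liver replicate 1 or 2 or subcutaneous replicate 2 or 3 (0.0547 to 0.103), and Acsl1 without any but liver replicate 3 and subcutaneous replicate 1 (0.0508 to 0.105).

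In brain against the other sites, where 22.7% of all genes passed, 4 of the 9 genes on the protease list were lower and 4 higher. The higher ones were the proteases Tmprss11e and Corin, the channel subunit Scnn1a and the urokinase receptor Plaur. Counts were low, with 10 UMIs of Tmprss11e in each brain sample and 10 and 36 UMIs of Corin. The 4 lower ones were the proteases St14 (matriptase; -0.87, SE 0.184, adjusted p = 0.0104) and Prss8 (prostasin; -1.33, SE 0.301, adjusted p = 0.0138) and the inhibitors Spint1 and Spint2. None of these 4 calls held without brain replicate 1 (adjusted p 0.0675 to 0.151) or without brain replicate 2 (0.0742 to 0.314), and that of Spint1 was also lost without liver replicate 2 or 3 or subcutaneous replicate 2 or 3. Of the 4 higher ones, Tmprss11e (adjusted p = 0.0602), Scnn1a (0.110) and Plaur (0.527) lost the call without brain replicate 1, and Corin without brain replicate 2 (0.283) or liver replicate 2 (0.0502). Plaur, the urokinase receptor, was at 2.54 and 0.491 CPM in brain replicates 1 and 2, which differ in the same direction in macrophage markers, and it also lost the call without liver replicate 1 (0.0541) or 3 (0.0521) and without cells of at least 3 macrophage markers (0.0814). In cells with Sfrp5 and Sftpc, where 48.3% of all genes passed, 5 of 7 tested were higher and 1 lower: Prss8 by 1.01 (SE 0.181, adjusted p = 0.000564) and St14 by 0.78 (SE 0.162, adjusted p = 0.00328), with Spint1, Spint2 and Scnn1a, a channel subunit that such proteases cut. Tmprss4 was also higher in cells with Sfrp5 and Sftpc. Its brain call repeats the difference between the sites it was chosen to separate, with brain at -0.10 (SE 0.254) from subcutaneous tumours. Its direction in brain is therefore not set beside theirs. In the sulfur and selenium list 3 of 27 genes were lower in brain, with Tst, a sulfurtransferase, at -1.05 (SE 0.169, adjusted p = 0.00332), and 3 were higher. Of the 20 fatty acid genes 4 were higher in brain and 1 was lower. Those higher were the fatty acid transporter Slc27a1 (1.01, SE 0.130, adjusted p = 0.00143), Ffar2, Hcar2 and Fabp7. Ffar2 was at 1.84 and 3.00 CPM in brain, from 40 and 116 UMIs, and at 0.324 to 0.815 CPM elsewhere. Hcar2 had 39 and 10 UMIs in brain replicates 1 and 2. Of 10 tested Bex and Tceal genes and their partners, Tceal3 and Tceal8 were higher in brain and 0 were lower. These counts are near the 22.7% of all genes. Of the 9 genes on the list of sialomucins and partners 4 were higher, and Cd164 was lower. The higher ones were the sialomucins Podxl (1.41, SE 0.198, adjusted p = 0.00202), Selplg and Cd34 and the chemokine receptor Cxcr4. Selplg was at 7.01 and 2.22 CPM and Cd34 at 3.60 and 0.594 CPM in brain replicates 1 and 2, again in the order of the macrophage markers, and both lost the call without cells of at least 3 such markers (adjusted p of 0.0691 and 0.0688) and without brain replicate 1 (0.0543 and 0.355). Cd34 was also lost when any single liver replicate was left out (0.0508 to 0.0620), and Cxcr4 without brain replicate 1 (0.161) or liver replicate 2 (0.0502). Podxl, Slc27a1 and Tst passed in each fit that left out a sample or these cells.

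Of 8 tested neighbours on the chromosome, 2 passed between liver and subcutaneous tumours, Rbp4 and Sytl1, where 2.83% of all genes did. Each had the direction of the gene beside it, for which that gene was chosen. With 2 genes this is a description only. Rbp4, the carrier of retinol in blood, lies 2366 bases beyond Ffar4 on the opposite strand, so that the 3' ends of the 2 genes face each other. Rbp4 was at 18.6, 14.7 and 13.7 CPM in liver, at 41.0, 39.3 and 31.1 CPM in subcutaneous tumours and at 42.6 and 45.96 CPM in brain. It was lower in liver than in subcutaneous tumours (-1.13, SE 0.154, adjusted p = 0.0106) and higher in brain (0.82, SE 0.146, adjusted p = 0.00545). The first call was lost without liver replicate 2 (adjusted p = 0.0890) and the second without brain replicate 2 (adjusted p = 0.0522). Within samples it was higher in hypoxia-high cells (1.14, SE 0.126, adjusted p = 0.000851) and lower in cells with Sfrp5 and Sftpc (-1.05, SE 0.0574, adjusted p = 1.59e-08), the directions of Ffar4. Cep55, on the other side of Ffar4 at 22648 bases, did not pass between liver and subcutaneous tumours (-0.13, SE 0.141, adjusted p = 0.705).

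Sytl1, a synaptotagmin-like protein of vesicle traffic, lies 28535 bases beyond Cd164l2. It was at 6.80, 7.51 and 7.90 CPM in liver, 4.44, 3.47 and 5.01 CPM in subcutaneous tumours and 1.89 and 1.86 CPM in brain, the order of Cd164l2. It was higher in liver than in subcutaneous tumours (0.90, SE 0.157, adjusted p = 0.0250) and lower in brain (-1.64, SE 0.183, adjusted p = 0.000779). The first call held only in the fits without subcutaneous replicate 1 or 3 and was lost in the other 6 that left out a sample (adjusted p 0.0502 to 0.133). Map3k6, which lies between them, did not pass (0.59, SE 0.318, adjusted p = 0.379), nor did Wasf2 on the other side (0.0050, adjusted p = 0.991). Psmb4 and Rfx5 beside Selenbp1 and Tceal8 beside Bex4 did not pass between liver and subcutaneous tumours (adjusted p of 0.889, 0.499 and 0.361), and no neighbour of Tmprss4 was tested.

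The genes most like each of the 5 over the 8 samples were found by Pearson correlation of log2(CPM + 1) among 7942 genes of at least 10 CPM on average. The 8 samples fall into 3 sites, which all genes share, so these correlations are a description. A correlation also does not measure the size of a difference. For Selenbp1 they were Ero1l (0.986), an oxidase of the endoplasmic reticulum that is on the hypoxia list, Tram1 (0.985) and Gzf1 (0.981). For Ffar4 they were Eloa (0.991), the homeobox gene Irx2 (0.990) and Bhlhe40 (0.981), a transcriptional repressor, which was at 16.6 to 22.7 CPM in subcutaneous and 2.61 to 3.45 CPM in liver tumours. For Cd164l2 they were Mrps5 (0.996), the epithelial cadherin Cdh1 (0.992) and the potassium channel Kcnh3 (0.989). For Tmprss4 they were Vamp8 (0.974), S100a16 (0.972) and Kctd13 (0.972), and for Bex4 Npc2 (0.950), Ccdc12 (0.920) and Avl9 (0.907). Kcnh3 spanned 89.3 to 132.4 CPM in liver, 29.5 to 62.1 CPM in subcutaneous and 16.6 to 20.4 CPM in brain tumours. Others differed far less. Mrps5 averaged 139 CPM in liver, 126 CPM in subcutaneous and 113 CPM in brain tumours. In the same order Tram1 averaged 61.8, 73.5 and 64.5 CPM, and Npc2 144, 137 and 146 CPM.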

How the data were processed

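The authors deposited filtered UMI count matrices, 1 per library, made with Cell Ranger 3.0.0 per the file headers; STAR and the build mm10 come from the submitters' processing notes. A cell was retained if it had 500 or more genes and no more than 10% of its UMIs from mitochondrial genes; no doublet removal was applied. UMIs of the tumour cells of a sample were summed and fitted over all 13931 genes left by edgeR's low-count filter, with TMM scaling and the quasi-likelihood test (edgeR 4.0.16, R 4.3.3), 1 mean per site and Benjamini-Hochberg adjustment at 0.05. The contrast of brain with the mean of the other sites is orthogonal to liver against subcutaneous tumours, but its reference lies between the sites the genes were chosen to separate. Classes of cells were compared with the sample as a block and needed at least 20 cells on each side. CPM values are scaled by total UMIs, and log2 differences by TMM. The biological coefficient of variation was 17.9%, with 5 residual degrees of freedom. The members, the gene lists and the marker pairs were chosen with earlier results of these data known. Named genes are the 5 members, the 3 most correlated with each, fixed close relatives, up to 4 per list past the threshold by size, and the 2 nearest annotated genes on each side. DESeq2 1.42.0, other scalings, filters, tumour rules, class cuts, thinned cells, the replicate number as a block and each left-out sample were the alternatives. Scripts were tested on simulated counts. Python 3.11.15, scipy 1.17.1 and pandas 2.3.3 were used.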

Additional observations from a re-analysis of the deposited data

Results flagged for a closer look

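For some genes every brain sample and every sample of another site lay on opposite sides of 0 in the ratio of a cell class to the other cells of the sample. These differences were not tested, with 2 brain and 3 samples of each other site, and some rest on few UMIs. The values are mean log2 ratios. Tmprss4 in cycling cells was at -0.36 in liver and -0.34 in subcutaneous tumours, against 0.17 in brain, and in hypoxia-high cells at 0.44 in brain against -0.075 in liver. Tmprss4 in cells with Isl1 and Htr3a was at 1.62 in brain against -0.86 in subcutaneous tumours. Bex4 in cells with Sfrp5 and Sftpc was at 0.76 in liver and 0.83 in subcutaneous tumours, against -0.53 in brain, and in cells with Rem2 and Galnt14 at 0.20 and 0.52, against -0.45. Bex4 in cells with En1 and Des was at 1.55 in brain and 1.18 in subcutaneous tumours against -1.12 in liver. Ffar4 in cells with Tfap2a and Cldn7 was at 0.77 in liver and 0.18 in subcutaneous tumours, against -0.31 in brain.

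Selenbp1 appeared in kept cells that did not pass the tumour rule, and in 5 of 8 libraries its level there lay above that of the tumour cells by more than counting error. It was at 24.5 and 21.9 CPM there in brain replicates 1 and 2, at 17.9 and 25.4 CPM in liver replicates 1 and 3, from 5 and 9 UMIs, and at 36.8 CPM in subcutaneous replicate 1. The tumour cells of these libraries were at 4.93, 5.76, 3.26, 3.63 and 24.9 CPM. In the other 3 libraries the exact Poisson interval held the level of the tumour cells: liver replicate 2 was at 9.45 CPM (3.80 to 19.5) against 4.01, subcutaneous replicate 3 at 23.9 CPM (8.78 to 52.1) against 19.8, and subcutaneous replicate 2 lay below its tumour cells, at 22.9 CPM (12.2 to 39.1) against 27.0.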

How the results depend on the processing

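Of 105 recomputed values of the 5 genes in the brain contrast, 99 kept their direction and side of the threshold and 6 kept only the direction. With samples left out in turn, the log2 difference ran from -1.54 to -1.09 for Tmprss4, from -0.98 to -0.73 for Selenbp1 and from 0.42 to 0.54 for Ffar4. With the replicate block Ffar4 was at 0.45 (adjusted p = 0.0565), and the other 4 genes kept their calls. The labels do not say whether equal replicate numbers pair the samples. Deviations of same-numbered samples correlated at -0.127 to 0.250, and those of differently numbered samples at -0.302 to 0.303. With 2 or 3 samples per site these values cannot settle whether samples are paired. Of 110 liver minus subcutaneous values 3 moved beyond the spread between replicates, all of Bex4: 1.61 with scaling by total UMIs, 1.88 with thinned cells and 1.60 in non-cycling cells. Genes past the threshold between liver and subcutaneous tumours numbered 394 with all samples, 1059 with DESeq2, 229 with the replicate block and 713 with scaling by total UMIs, of which 112 were higher and 601 lower in liver against 130 and 264, with the median of all genes shifted from -0.0061 to -0.12. With samples left out that number ran from 33 to 1024, the number for brain from 1081 to 5212 and that for hypoxia-high cells from 2094 to 3804; the cause was not tested. Of 385 class values 365 kept direction and call. Tmprss4 in hypoxia-high cells, which passed in 1 alternative only, was at 0.019 with DESeq2 and at -0.065 to 0.057 with samples left out. With Isl1 and Htr3a, Tmprss4 ran from -0.24 to 0.0014 and Cd164l2 from -0.063 to 0.18. DESeq2 alone of the tools called Bex4 with Sfrp5 and Sftpc (0.53), Tmprss4 with Tfap2a and Cldn7 (0.68) and Tmprss4 and Cd164l2 with Rem2 and Galnt14 (0.61 and 0.54). Depth limits the rarer genes: 3 UMIs are 0.0484 to 0.138 CPM in a whole sample and far more in a small class.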
